A study of Homo sapiens with 16 samples.

Results

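The genes of MHC class I antigen presentation were followed through 6 lines of SW480, a human colon adenocarcinoma cell line. The members were 9 genes of the 66023 in the count table, found by their symbols: HLA-B, HLA-C, HLA-E, HLA-F, B2M, TAP1, TAP2, TAPBP and NLRC5. The lines were untreated SW480 (Parental, n = 2), SW480 with a non-mammalian control shRNA in pLKO.1-puro (shScrambled, n = 2), and the Ajuba knockdown (KD) lines shAjuba1 (n = 3), with an shRNA to the coding region, and shAjuba2 (n = 3), with an shRNA to a non-coding part of the transcript. Ajuba was overexpressed (OE) from a CMV promoter with a FLAG-HA tag in Ajuba OE (n = 3), and its Control (n = 3) carried that construct with the Ajuba sequence clonally excised. All lines but Parental were made by lentiviral transduction and selected with puromycin, and no interferon or other stimulus was named for any line. RNA was taken from cells in bulk, so more RNA per cell and more cells with a gene switched on cannot be told apart. Each condition was 1 line, so the effect of Ajuba and other differences between lines cannot be told apart, and the study speaks of technical replicates, so p-values measure only the spread between these samples, which may be technical. The depth was 30132396 to 69684675 read pairs on genes.

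MHC class I molecules carry short peptides from inside the cell to its surface, where CD8+ T cells read them. A polymorphic heavy chain (HLA-B or HLA-C) or a less variable one (HLA-E or HLA-F) pairs with the light chain beta-2-microglobulin, encoded by B2M. Peptides cut by the proteasome enter the endoplasmic reticulum through the transporter made of TAP1 and TAP2, and tapasin (TAPBP) holds the empty heavy chain at that transporter while a peptide is loaded. NLRC5 is a transactivator that acts on promoters of class I heavy chain genes and their partners, and interferon gamma raises most of these genes. Loss of class I presentation is one way in which colon cancers escape T cells, and loss of the heavy chain display can in turn expose a cell to natural killer cells.

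On hg38, 7 of the 9 members lie between 29722775 and 33314284 on chromosome 6, in the order HLA-F, HLA-E, HLA-C, HLA-B, TAP2, TAP1 and TAPBP. B2M lies on chromosome 15 (44711358 to 44718851) and NLRC5 on chromosome 16 (56989485 to 57083531). HLA genes resemble each other, and of the 50-base windows of the main transcript, 6.76% for HLA-C, 6.16% for HLA-E, 2.56% for HLA-B and 1.89% for HLA-F also occur in a gene elsewhere. TAPBP shared 7.09% of its windows in this way and B2M and NLRC5 shared none. HLA-F overlaps the antisense gene HLA-F-AS1 over 535 bases, and TAP1 overlaps PSMB8-AS1 over 672 bases. HLA-F-AS1 had 151 to 488 counts per sample, where HLA-F had as few as 215, whereas PSMB8-AS1 had 53 to 123 counts beside at least 823 for TAP1. The strand and overlap options of the counting were not given in the sources used here. The level of HLA-F in particular may thus hold antisense reads or may have lost reads over the shared bases. TAP2 shares 35.3% of its windows with another gene, mostly the read-through gene ENSG00000250264 on the same strand, which had 0 to 4 counts, so read pairs in the shared part may have been lost from TAP2. HLA-B also overlaps 2 pseudogenes and a miRNA gene that had 0 to 3 counts.

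The region before the start site is where these genes differ in their known control elements, so the promoters of the polymorphic heavy chains, of HLA-F and of B2M are shown. They are the 200 bases upstream of the RefSeq start on GRCh38.p14, written 5′ to 3′ on the strand of the gene. Capitals mark letters that match TGACG (the core of the X2 box, bound by CREB and ATF1), ATTGG (the Y box, bound by NF-Y), AANNGAAA (a core for interferon regulatory factors) or GGGNNTTNC (an NF-kB site) on either strand. The HLA-B sequence is chr6:31357180-31357379 on the minus strand, HLA-C is chr6:31272093-31272292 on the minus strand, HLA-F is chr6:29723234-29723433 on the plus strand and B2M is chr15:44711317-44711516 on the plus strand. GENCODE places the outermost start of HLA-B, HLA-C, HLA-F and B2M further upstream than RefSeq does, so part of these bases can be transcribed.
HLA-B: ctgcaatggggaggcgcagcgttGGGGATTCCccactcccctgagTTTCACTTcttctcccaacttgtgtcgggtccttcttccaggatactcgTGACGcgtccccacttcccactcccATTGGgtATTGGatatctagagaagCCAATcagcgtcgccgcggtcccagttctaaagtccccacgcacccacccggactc
HLA-C: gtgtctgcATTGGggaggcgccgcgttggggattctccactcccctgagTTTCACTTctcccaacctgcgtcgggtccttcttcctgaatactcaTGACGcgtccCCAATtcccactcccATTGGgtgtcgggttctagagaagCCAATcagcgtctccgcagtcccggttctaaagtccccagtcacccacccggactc
HLA-F: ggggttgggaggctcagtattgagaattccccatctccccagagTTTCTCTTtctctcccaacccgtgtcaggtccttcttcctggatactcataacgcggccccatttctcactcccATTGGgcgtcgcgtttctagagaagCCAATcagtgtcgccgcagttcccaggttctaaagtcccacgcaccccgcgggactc
B2M: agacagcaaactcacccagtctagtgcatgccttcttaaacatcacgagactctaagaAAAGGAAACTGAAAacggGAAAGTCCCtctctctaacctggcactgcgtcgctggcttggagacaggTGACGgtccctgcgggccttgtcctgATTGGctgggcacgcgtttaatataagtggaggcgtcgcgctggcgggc

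TGACG followed on the same strand by ATTGG within 40 bases occurred upstream of HLA-B and HLA-C, where 20 bases separate the pair, and of B2M, where 21 bases separate it. Over the 35097 RefSeq promoters searched across 250 upstream bases, 202 or 0.576% held this pair. HLA-F has 2 matches to ATTGG in the stretch shown but none to TGACG. Single matches were common over all promoters, with TGACG in 21.2%, ATTGG in 32.0%, AANNGAAA in 20.3% and GGGNNTTNC in 14.2%. AANNGAAA occurred at 1 start at least of each of the 7 members with a promoter in the table, which has no entry for HLA-E or NLRC5. At TAP1 it occurred at the first of 2 starts and not at the other one. These are matches of letters, not measured sites.

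**Figure D1:**
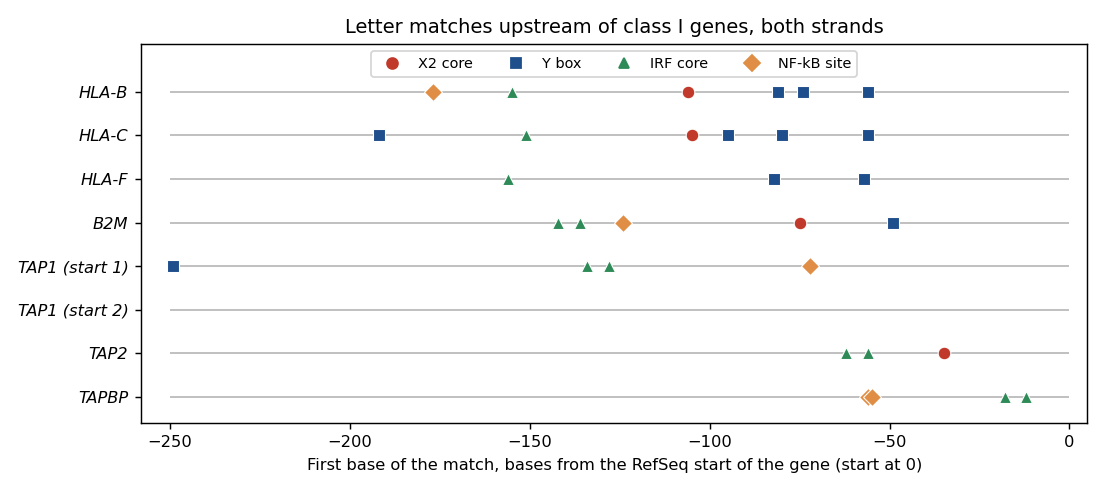
Position of the letter matches in the 250 bases before the RefSeq start of 7 class I genes, with TAP1 shown at 2 starts. The x axis gives the first base of each match from the start, each symbol is 1 match, and HLA-B, HLA-C and B2M hold an X2 core followed by a Y box.

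AJUBA itself followed the labels. Its level, in read pairs scaled to 1000000 per sample (RPM), was 90.2 ± 2.00 in Parental (SD, n = 2), 82.5 ± 1.26 in shScrambled (n = 2), 50.1 ± 3.12 in shAjuba1 (n = 3), 62.0 ± 5.93 in shAjuba2 (n = 3), 93.2 ± 6.34 in Control (n = 3) and 526 ± 56.1 in Ajuba OE (n = 3). Against shScrambled this was 0.601-fold in shAjuba1 (edgeR adjusted p = 2.19e-05) and 0.728-fold in shAjuba2 (edgeR adjusted p = 0.0773), which missed the threshold of 0.05. Ajuba OE stood at 5.90-fold Control (edgeR adjusted p = 7.69e-05). Of 10 colon epithelium markers, 7 reached 1 RPM in every sample and KRT20 and CEACAM5 stayed below 1 RPM in all samples. The sum of 10 leukocyte markers was 5.27 to 9.17 RPM, and PTPRC, CD3D, CD3E and MS4A1 were each below 1 RPM throughout. Sums of 8 fibroblast and 5 endothelial markers were 6.34 to 37.8 and 2.39 to 5.62 RPM.

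All 9 members were detected in every sample and passed the filter on low counts in each comparison. Per kilobase of the main transcript, B2M was the most abundant, with a median of 203 RPM per kb over the 16 samples, followed by HLA-C at 106. The levels of TAPBP, HLA-B and HLA-E were close to each other at 31.8, 28.6 and 27.4 RPM per kb. TAP1 (10.6), TAP2 (5.92) and HLA-F (5.53) were lower, and NLRC5 had the lowest level at 1.21 RPM per kb. B2M thus lay above each heavy chain among the members on this scale.

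**Figure D2:**
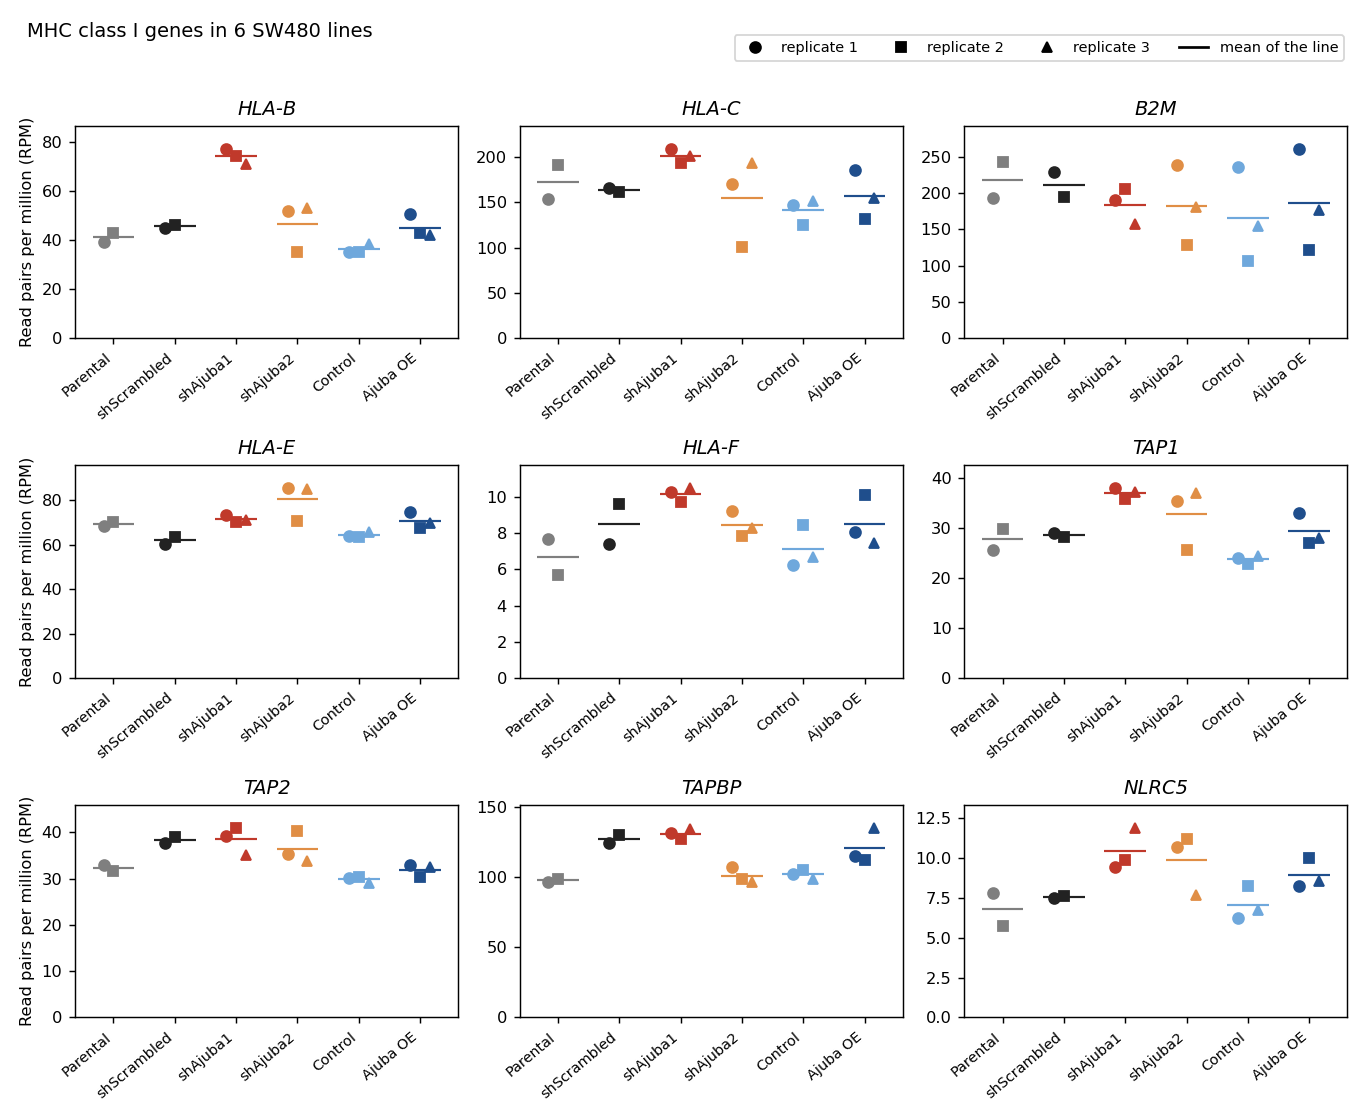
RPM (y axis, from 0) of each class I gene in the 16 samples of 6 lines (x axis). Symbols give the replicate number and horizontal lines the mean of the line, and the 3 shAjuba1 samples lie above all other samples for HLA-B, between 71.1 and 77.3 RPM.

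Of the 9 members, 6 differed among the 6 lines in the edgeR test over all 16 samples, in which 45.7% of the 23597 genes tested were called. They were HLA-B (adjusted p = 1.09e-04), TAPBP (0.0011), TAP1 (0.00832), HLA-E (0.0247), NLRC5 (0.0373) and TAP2 (0.0382). HLA-F (0.0652), HLA-C (0.206) and B2M (0.796) missed the threshold. Leaving out 1 library left 3 members called without replicate 2 of Parental, either replicate of shScrambled or replicate 3 of Control, and 7 without replicate 2 of shAjuba2, Control or Ajuba OE.

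The comparison of shAjuba1 with shScrambled concerns the KD line with the lower mean of AJUBA. It gave 4 members higher and 0 lower. HLA-B, HLA-C, TAP1 and NLRC5 were higher, at 1.61, 1.22, 1.28 and 1.36-fold, whereas B2M, HLA-E, HLA-F, TAP2 and TAPBP did not pass the test. Over the 21082 genes tested, 18.2% were called higher and 20.2% lower. The median log2 fold change of the members was 0.23, beside -0.0065 over all genes. The calls of HLA-C (adjusted p = 0.0534 and 0.103) and NLRC5 (0.0828 and 0.0917) were lost without replicate 1 or replicate 2 of shScrambled, and that of HLA-C also without replicate 1 of shAjuba1 (0.081). The call of TAP1 was lost without replicate 2 of shScrambled (adjusted p = 0.0888), while HLA-B kept its call without any single library. With all 16 samples in 1 fit HLA-B alone was called, and TAP1 (0.053), NLRC5 (0.094) and HLA-C (0.314) were not.

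The comparison of shAjuba2 with the same 2 shScrambled samples gave 0 members called by edgeR, and 0 by DESeq2. At an unadjusted p under 0.05, 2 members differed, HLA-E at 1.25-fold (adjusted p = 0.154) and TAPBP at 0.767-fold (adjusted p = 0.0878). Of 22446 genes tested, 3.19% were called higher and 4.44% lower. The median log2 fold change of the members was -0.06, beside -0.00503 over all genes. Without replicate 2 of shAjuba2, HLA-E was higher (log2 fold change 0.40, adjusted p = 0.00588) and TAPBP lower (-0.38, adjusted p = 0.00967). Both were also called with all 16 samples in 1 fit (adjusted p = 0.0165 and 0.0125). The shares over all genes given here are those of the main fit. The calls over all genes changed with such settings too, as given in the closing section.

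Setting shAjuba1 against shAjuba2 tests whether the 2 KD lines differed. HLA-B and TAPBP were higher in shAjuba1, at 1.65 and 1.34-fold, and 0 members were lower. Of 21600 genes tested, 9.47% were called higher in shAjuba1 and 10.1% lower. The median log2 fold change of the members was 0.23, beside -0.00318 over all genes. HLA-B kept its call without any single library (adjusted p between 0.000832 and 0.0445), and TAPBP lost it without any one replicate of shAjuba1 or without replicate 1 of shAjuba2 (adjusted p between 0.0523 and 0.0964).

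With Ajuba OE against Control, which asks what goes with more Ajuba, 0 members were called by edgeR, and 0 by DESeq2. All 9 members had a positive log2 fold change, from 0.16 for TAP2 to 0.40 for NLRC5, and their median was 0.31 beside -0.0145 over all genes. Over all genes 10142 of 21140 were positive. Control had the lowest mean of the 6 lines for HLA-B, HLA-C, B2M, TAP1 and TAP2. With Parental as the control, HLA-C and B2M were negative and the other members positive. At an unadjusted p under 0.05, 5 members differed: HLA-B, HLA-E, TAP1, TAPBP and NLRC5. HLA-B and TAP1 were closest to the threshold, with adjusted p = 0.083 and 0.0877. Of 21140 genes tested, 2.39% were called higher and 3.03% lower. With all 16 samples in 1 fit, TAP1 (log2 fold change 0.39, adjusted p = 0.0482) and TAPBP (0.33, adjusted p = 0.0201) were called. That fit also called more of all genes than the main one, as given in the closing section. The standard error was 0.0998 on the log2 scale for HLA-B and 0.333 for B2M.

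Each control line was also compared with Parental, from which it differs by transduction, selection and its construct. In shScrambled, TAP2 and TAPBP were higher, at 1.18 and 1.30-fold, and 0 members were lower, with 15% of 21289 genes called higher and 15.6% lower. In Control, 0 members were called by edgeR and 0 by DESeq2, 0 had an unadjusted p under 0.05, and 0.0508% of 21644 genes were called higher and 0.319% lower. The median log2 fold change of the members was 0.14 in shScrambled and -0.10 in Control. TAPBP kept its call in shScrambled without any single library (adjusted p between 0.00625 and 0.016), whereas TAP2 lost it without any 1 of the 4 libraries (adjusted p between 0.072 and 0.222), and also with DESeq2 (0.11) and with all 16 samples in 1 fit (0.282). These comparisons share the Parental samples.

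**Figure D3:**
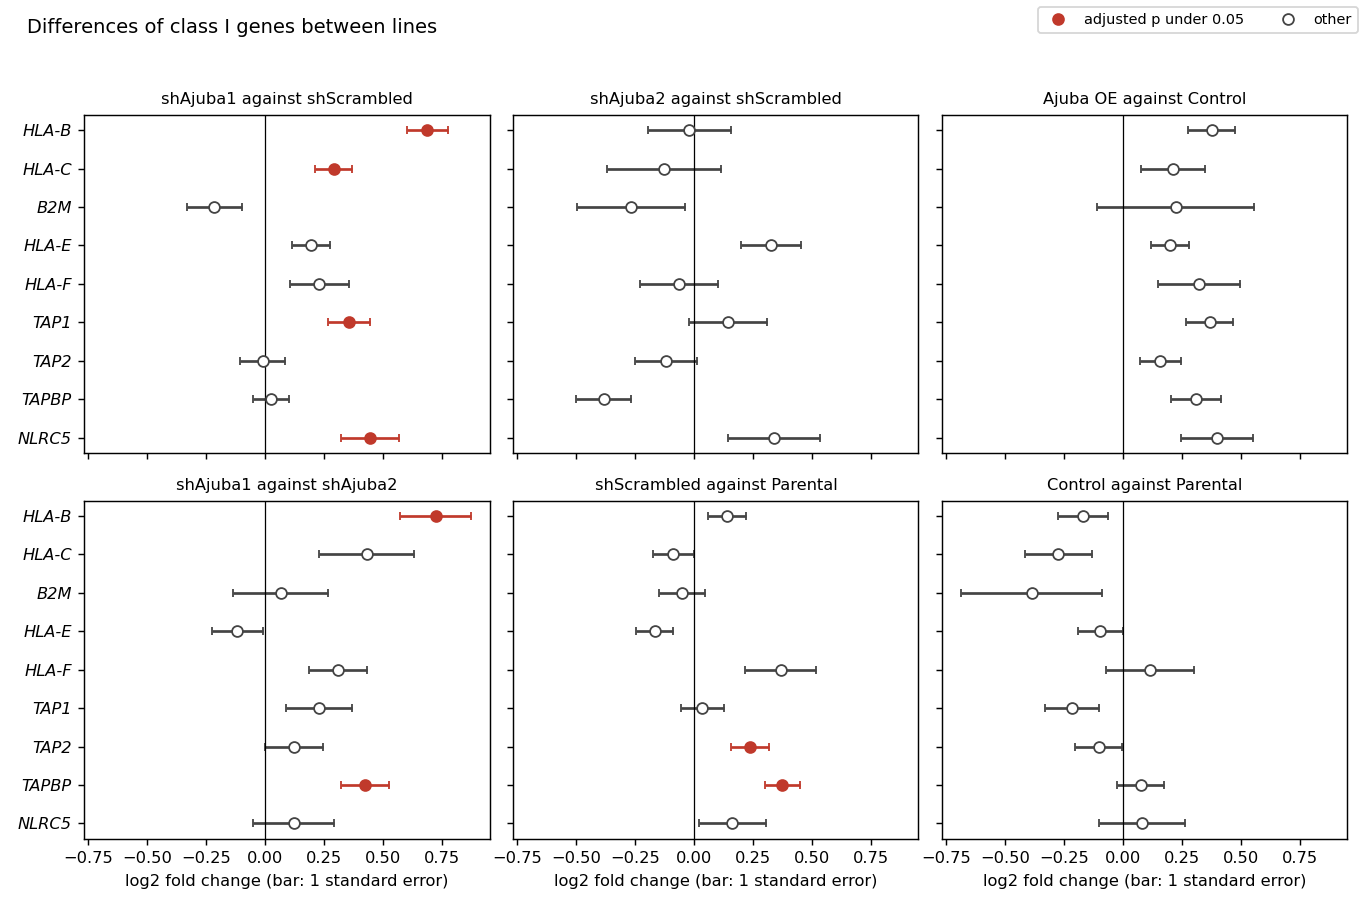
log2 fold change (x axis) with 1 standard error of each class I gene (y axis) in 6 comparisons of lines, with filled points where the adjusted p was under 0.05. In shAjuba1 against shScrambled 4 genes were called, and in Ajuba OE against Control all 9 points lie above 0 with none called.

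Among the heavy chains of the members HLA-B showed the clearest difference. It was at 77.3, 74.1 and 71.1 RPM in shAjuba1, 51.7, 35.1 and 52.9 RPM in shAjuba2, and 45.1 and 46.1 RPM in shScrambled. The 3 shAjuba1 samples lay above all 13 others, and the range of shAjuba2 held both shScrambled samples. In shAjuba1 the log2 fold change against shScrambled was 0.69 ± 0.086 (SE, edgeR adjusted p = 4.89e-05) and against shAjuba2 it was 0.72 ± 0.151 (edgeR adjusted p = 0.00938). The fold change between shAjuba2 and shScrambled was 0.986 (edgeR adjusted p = 0.958). HLA-B was at 50.6, 42.7 and 42.0 RPM in Ajuba OE and 35.3, 35.1 and 38.3 RPM in Control. All Ajuba OE samples lay above all Control samples, at a log2 fold change of 0.38 ± 0.0998. Parental, at 39.3 and 42.9 RPM, lay between Control and shScrambled, and its range overlapped that of Ajuba OE.

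HLA-C, the main inhibitory ligand for KIR receptors of natural killer cells, had the highest level of the heavy chains among the members. It was at 209, 193 and 201 RPM in shAjuba1 and 165 and 161 RPM in shScrambled, which did not overlap (log2 fold change 0.29 ± 0.0782, edgeR adjusted p = 0.0105). In shAjuba2 it was at 170, 101 and 193 RPM, and replicate 2 alone lay below shScrambled. Parental was at 153 and 191 RPM, spanning both shScrambled samples. With Parental as the control, the log2 fold change of HLA-C in shAjuba1 was 0.20 and missed the threshold (edgeR adjusted p = 0.132). Ajuba OE, at 185, 131 and 155 RPM, overlapped Control, at 147, 125 and 151 RPM.

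HLA-E presents signal peptides of other class I chains to the NKG2A receptor of natural killer cells. It was at 85.5, 70.7 and 84.9 RPM in shAjuba2 and 60.2 and 63.6 RPM in shScrambled, without overlap. The levels in shAjuba1 were 73.3, 70.4 and 71.1 RPM, also above shScrambled, at a log2 fold change of 0.20 ± 0.0815 (edgeR adjusted p = 0.0771). HLA-E was thus the one heavy chain among the members with its highest mean in shAjuba2 (80.4 ± 8.35 RPM, SD, n = 3). Its mean in shAjuba1 was 71.6 ± 1.52 RPM (n = 3), but the difference between these lines, -0.12 ± 0.109, missed the threshold (edgeR adjusted p = 0.48). Ajuba OE was at 74.8, 67.5 and 69.7 RPM and Control at 63.7, 63.5 and 65.6 RPM, again without overlap. Both Parental samples, at 68.5 and 70.1 RPM, lay within the range of Ajuba OE.

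HLA-F, a non-classical chain that can be displayed without peptide, had the lowest level of the heavy chains among the members. HLA-G, counted here with the class I-like genes, was lower, with line means from 0.681 RPM in Control to 1.04 RPM in shAjuba1. The line means of HLA-F ran from 10.2 ± 0.392 RPM in shAjuba1 (SD, n = 3) and 8.54 ± 1.56 in shScrambled (n = 2) to 6.69 ± 1.41 in Parental (n = 2). Only shAjuba1 did not overlap the next line in the order. Against Parental, shAjuba1 was higher by 0.58 on the log2 scale (edgeR adjusted p = 0.00544), and against shScrambled the difference was 0.23 ± 0.125 (edgeR adjusted p = 0.169). The antisense overlap given above applies to these values.

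B2M varied more within lines than between them. It was at 261, 122 and 176 RPM in Ajuba OE, 235, 106 and 155 RPM in Control, and 239, 129 and 180 RPM in shAjuba2. In each of these 3 lines replicate 2 was the lowest, at 0.556, 0.545 and 0.614 of the mean of replicates 1 and 3, while in shAjuba1 the ratio was 1.18 (190, 205 and 157 RPM). Parental (193 and 243 RPM) and shScrambled (229 and 194 RPM) lay within the range of Ajuba OE. In shAjuba1 the difference from shScrambled was -0.22 ± 0.116 on the log2 scale (edgeR adjusted p = 0.165). HLA-C had ratios of 0.773, 0.841 and 0.554 in replicate 2 of Ajuba OE, Control and shAjuba2. NLRC5, in contrast, had ratios of 1.19, 1.27 and 1.22, and HLA-F had 1.3, 1.31 and 0.895. In Ajuba OE and Control, replicate 1 lay farther from the middle sample for B2M than replicate 2 did. What moves with these differences between replicates was not tested.

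**Figure D4:**
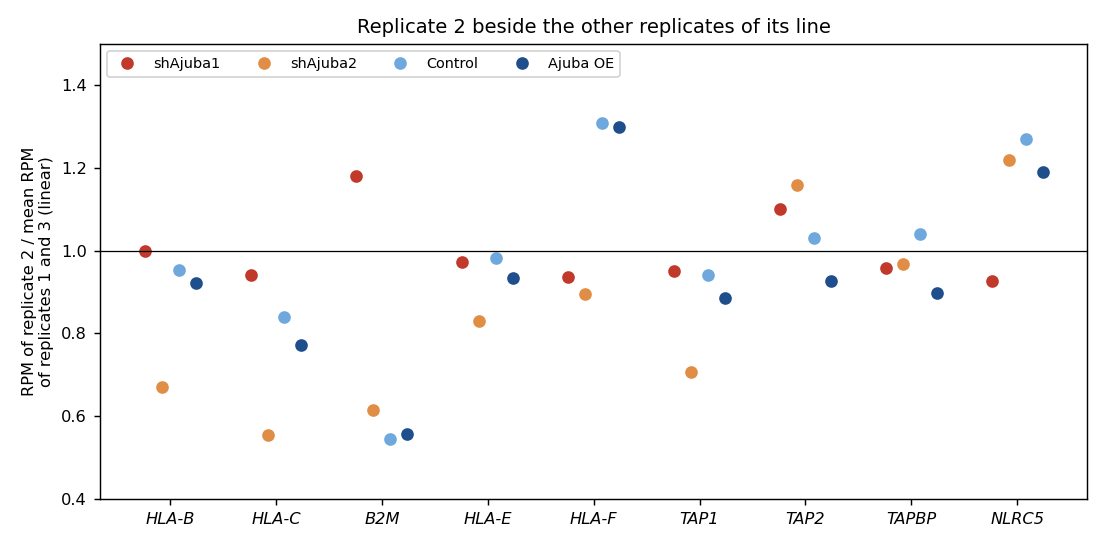
RPM of replicate 2 divided by the mean RPM of replicates 1 and 3 (y axis, linear) for each class I gene (x axis) in the 4 lines with 3 replicates. B2M stands at 0.545 to 0.614 in shAjuba2, Control and Ajuba OE and at 1.18 in shAjuba1.

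Of the 2 transporter genes, TAP1 was called in shAjuba1 against shScrambled and TAP2 was not, and the difference between the genes was not tested. TAP1 was at 37.9, 35.7 and 37.2 RPM in shAjuba1 and 29.0 and 28.1 RPM in shScrambled, a log2 fold change of 0.36 ± 0.088 (edgeR adjusted p = 0.00649). Replicates 1 and 3 of shAjuba2 were as high, at 35.3 and 37.0 RPM, whereas replicate 2 was at 25.6 RPM, below both shScrambled samples. TAP1 was at 33.0, 27.0 and 27.9 RPM in Ajuba OE, all above Control at 24.0, 22.8 and 24.3 RPM. For TAP2 the 3 shRNA lines overlapped, with means of 38.5 ± 2.95 RPM in shAjuba1 (SD, n = 3), 38.3 ± 0.916 in shScrambled (n = 2) and 36.5 ± 3.33 in shAjuba2 (n = 3). Parental was at 33.0 and 31.7 RPM, and all 8 samples of the shRNA lines lay above it. Ajuba OE (31.9 ± 1.41 RPM, n = 3) and Control (29.9 ± 0.734 RPM, n = 3) stood at the end of the order.

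TAPBP split the lines in another way. It was at 131, 127 and 134 RPM in shAjuba1, 124 and 130 RPM in shScrambled, and 107, 98.5 and 96.2 RPM in shAjuba2. The shAjuba2 samples lay below all samples of both other shRNA lines and overlapped Parental, at 96.6 and 98.5 RPM. On the log2 scale TAPBP was higher by 0.42 ± 0.101 in shAjuba1 than in shAjuba2 (edgeR adjusted p = 0.0174) and by 0.38 ± 0.0751 in shScrambled than in Parental (edgeR adjusted p = 5.29e-04). In shAjuba1 against shScrambled it was 0.03 ± 0.0753. Ajuba OE, at 115, 112 and 135 RPM, lay above Control, at 102, 105 and 98.5 RPM. The value for shAjuba1 depended on the control, and with Parental as the control its log2 fold change was 0.39 (edgeR adjusted p = 0.00147).

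NLRC5 was at 9.44, 9.89 and 11.9 RPM in shAjuba1, 10.7, 11.2 and 7.68 RPM in shAjuba2 and 7.52 and 7.59 RPM in shScrambled. All 6 samples of the KD lines lay above shScrambled. The log2 fold change was 0.45 ± 0.123 in shAjuba1 (edgeR adjusted p = 0.0123) and 0.34 ± 0.196 in shAjuba2 (edgeR adjusted p = 0.315). Ajuba OE was at 8.22, 10.0 and 8.55 RPM and Control at 6.23, 8.24 and 6.74 RPM, with 1 Control sample just above the lowest Ajuba OE sample. Parental was at 7.80 and 5.75 RPM.

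Members were compared over the 16 samples, which share 6 lines, so that these correlations of log2 CPM are descriptions. HLA-B and TAP1 were the closest pair (Pearson r = 0.911, n = 16), followed by HLA-C with TAP1 and HLA-F with NLRC5 (both r = 0.793) and HLA-B with HLA-C (r = 0.785). B2M and NLRC5 had the lowest value, r = -0.397, and they moved in opposite directions in replicate 2 of 3 lines. Outside the members, the 5 genes closest to the mean standardized level of the 9 members were IL27RA (r = 0.921), WT1 (0.915), AFAP1 (0.914), KCNK15 (0.9) and SH3RF3 (0.888). IL27RA, a subunit of the interleukin 27 receptor, had mean levels of 30.78 RPM in shAjuba1 and 25.6 RPM in Ajuba OE, beside 17.98 in shScrambled and 14.44 in Control.

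The partners that cut, trim and load peptides were taken as a list of 15 genes, all tested. In shAjuba1 against shScrambled, 3 were higher and 0 lower, a share of higher genes near the 18.2% over all genes. They were PSME2, a subunit of the proteasome activator PA28 (log2 fold change 0.52, edgeR adjusted p = 5.17e-04), PSMB7, a catalytic subunit of the constitutive proteasome (0.28, 0.0171), and ERAP1, which trims peptides in the endoplasmic reticulum (0.28, 0.031). The list had a median of 0.17 beside -0.0065 over all genes. In shAjuba2 against shScrambled and in Ajuba OE against Control 0 of 15 were called, and in the latter all 15 had a positive log2 fold change with a median of 0.25. In shScrambled against Parental, where 15.6% of all genes were lower, 7 were lower and 0 higher, with PSMB6 (-0.64), PSMB7 (-0.45), CANX (-0.36) and PSMB5 (-0.31) at the smallest adjusted p (1.55e-06 to 0.0034). PSMB7 and PSME2 were thus lower in shScrambled than in Parental and higher in shAjuba1 than in shScrambled. PSME2 was also higher in shAjuba1 than in shAjuba2 (log2 fold change 0.48, edgeR adjusted p = 0.0162), the 1 call of the list there. None of the 15 was called in Control against Parental.

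Among 18 genes of interferon gamma signalling and class I promoter factors, 4 were higher and 4 lower in shAjuba1 than in shScrambled, near the 18.2% and 20.2% over all genes. IRF1, which binds interferon response elements, was at 61.7 ± 3.85 RPM in shAjuba1 (SD, n = 3), 53.3 ± 0.914 in shAjuba2 (n = 3) and 37.4 ± 1.89 in shScrambled (n = 2). Its log2 fold change in shAjuba1 was 0.70 (edgeR adjusted p = 5.53e-05), and IFNGR2, a chain of the interferon gamma receptor, rose by 0.69 (9.12e-05). The kinases of that receptor were lower in shAjuba1, JAK1 at -0.51 (4.21e-04) and JAK2 at -0.53 (0.00267). In shAjuba2 JAK1 alone was called, at -0.71 (edgeR adjusted p = 0.0151). In shAjuba1 against shAjuba2, IFNGR2 (0.98, edgeR adjusted p = 0.0024) and IFNGR1 (0.73, 0.0471) were higher and RFXANK, a subunit of the RFX factor at class I promoters, was lower (-0.47, 0.0154). In Ajuba OE against Control, NFKB1 alone was called (0.49, edgeR adjusted p = 0.0386). NFYA, IFNGR2 and RFXAP were lower and JAK1 and JAK2 higher in shScrambled than in Parental, and 0 of 18 were called in Control against Parental.

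The interferon-stimulated genes, which answer to the same cytokines as the class I genes, were mostly lower in shAjuba1. Of 23 tested of the 25 listed, 17 were lower and 5 higher than in shScrambled, where 20.2% of all genes were lower and 18.2% higher, and the median of the list was -0.59. OAS2 (-2.73, edgeR adjusted p = 7.58e-09), OAS1 (-2.01, 8.27e-07) and MX2 (-1.29, 6.44e-06), which are antiviral effectors, and IFIT2 (-3.2, 1.44e-05) had the smallest adjusted p. OAS2 was at 4.36 ± 0.411 RPM in shAjuba1 (SD, n = 3), 18.8 ± 0.134 in shAjuba2 (n = 3) and 28.9 ± 1.97 in shScrambled (n = 2). In Parental OAS2 was at 24.5 ± 0.81 RPM (n = 2). IFIT2 was low, with means of 0.152 RPM in shAjuba1 and 1.38 RPM in shScrambled. In shAjuba2 OAS2 (-0.67, edgeR adjusted p = 0.018), OAS1 (-0.77, 0.035) and MX2 (-0.82, 0.0473) were lower and IRF7 was higher (0.78, 0.0161). In shAjuba1 against shAjuba2, where 10.1% of all genes were lower and 9.47% higher, 6 genes of the list were lower and 2 higher. In Ajuba OE against Control 0 of 21 tested were called. In shScrambled against Parental, where 15% of all genes were higher and 15.6% lower, 8 were higher. IFI27 alone was lower (-1.42, edgeR adjusted p = 6.31e-08), and MX2 (0.67) and OAS1 (0.78) were among the higher ones. OAS2 and IFIT2 were also called higher there, so each of the 4 genes named for shAjuba1 was higher in its control than in Parental. Like OAS2, the other genes named also had lower means in shAjuba1 than in Parental. These were 1.28 and 2.96 RPM for OAS1, 4.18 and 6.35 RPM for MX2, and 0.152 and 0.604 RPM for IFIT2.

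Class I-like genes and ligands of the NKG2D receptor of natural killer cells have products that share the class I fold. They were mostly lower in shAjuba1 than in shScrambled. Of 13 tested of 14, 11 were lower in shAjuba1 and 0 higher, where 20.2% of all genes were lower and 18.2% higher. The median of the list was -0.78, beside -0.0065 over all genes. AZGP1 (-1.82, edgeR adjusted p = 4.16e-06), MR1, which presents vitamin metabolites to MAIT cells (-1.38, 4.32e-06), HFE, which acts in iron uptake (-1.32, 2.98e-05), and RAET1E (-1.34, 1.26e-04) had the smallest adjusted p. Against shAjuba2, 9 of 13 were lower in shAjuba1 and 0 higher, where 10.1% of all genes were lower and 9.47% higher. Among the lower genes were the NKG2D ligands ULBP3 (-1.41, edgeR adjusted p = 1.79e-04) and ULBP1 (-1.14, 0.00449). In shAjuba2 against shScrambled, where 4.44% of all genes were lower and 3.19% higher, AZGP1 alone was called (-2.7, edgeR adjusted p = 0.00311). In Ajuba OE, where 2.39% of all genes were higher than in Control, 2 NKG2D ligands were higher. They were ULBP3 (0.87, edgeR adjusted p = 0.0039) and RAET1L (1.54, 0.00424). ULBP3 was at 9.87 ± 0.386 RPM in Ajuba OE (SD, n = 3) and 5.65 ± 0.133 in Control (n = 3), beside 2.88 ± 0.167 in shAjuba1 (n = 3) and 5.37 ± 0.479 in shScrambled (n = 2). Against Parental, 6 were higher and 1 lower in shScrambled, where 15% of all genes were higher and 15.6% lower. AZGP1 was higher there by 1.78 (edgeR adjusted p = 1.26e-07). Its mean was 4.34 RPM in shScrambled, beside 1.23 in shAjuba1 and 1.25 in Parental. MR1, HFE and RAET1E had lower means in shAjuba1 (3.26, 3.06 and 1.14 RPM) than in Parental (5.66, 7.08 and 1.89 RPM).

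The MHC class II genes present peptides from outside the cell and depend on CIITA, a relative of NLRC5. Most were low here, since HLA-DQB1, HLA-DMA and CIITA did not exceed 11.7, 8.05 and 7.10 RPM in any sample and the chains HLA-DRA and HLA-DPA1 did not exceed 1.15 and 0.531 RPM. CD74, the invariant chain, was at 31.3 ± 0.75 RPM in shAjuba1 (SD, n = 3), 19.8 ± 0.397 in shScrambled (n = 2), 13.7 ± 1.62 in shAjuba2 (n = 3), 21.0 ± 3.89 in Ajuba OE (n = 3) and 13.3 ± 1.43 in Control (n = 3). It was higher in shAjuba1 than in shScrambled (log2 fold change 0.65, edgeR adjusted p = 1.29e-04), lower in shAjuba2 (-0.58, 0.0422) and higher in Ajuba OE than in Control (0.71, 0.0384). Of 9 class II genes tested, 3 were lower in shAjuba1, where 20.2% of all genes were lower, HLA-DQB1 (-1.07, edgeR adjusted p = 8.1e-06), HLA-DMB (-0.89, 0.00637) and HLA-DMA (-0.38, 0.0206), and 4 were lower in shAjuba2, where 4.44% of all genes were lower, namely HLA-DQB1, HLA-DRA, CD74 and CIITA. Of the 9, shScrambled had 8 higher than Parental, where 15% of all genes were higher, and 0 lower, with CIITA at 1.47 (edgeR adjusted p = 5.24e-07) and HLA-DRA at 2.94 (4.75e-06).

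**Figure D5:**
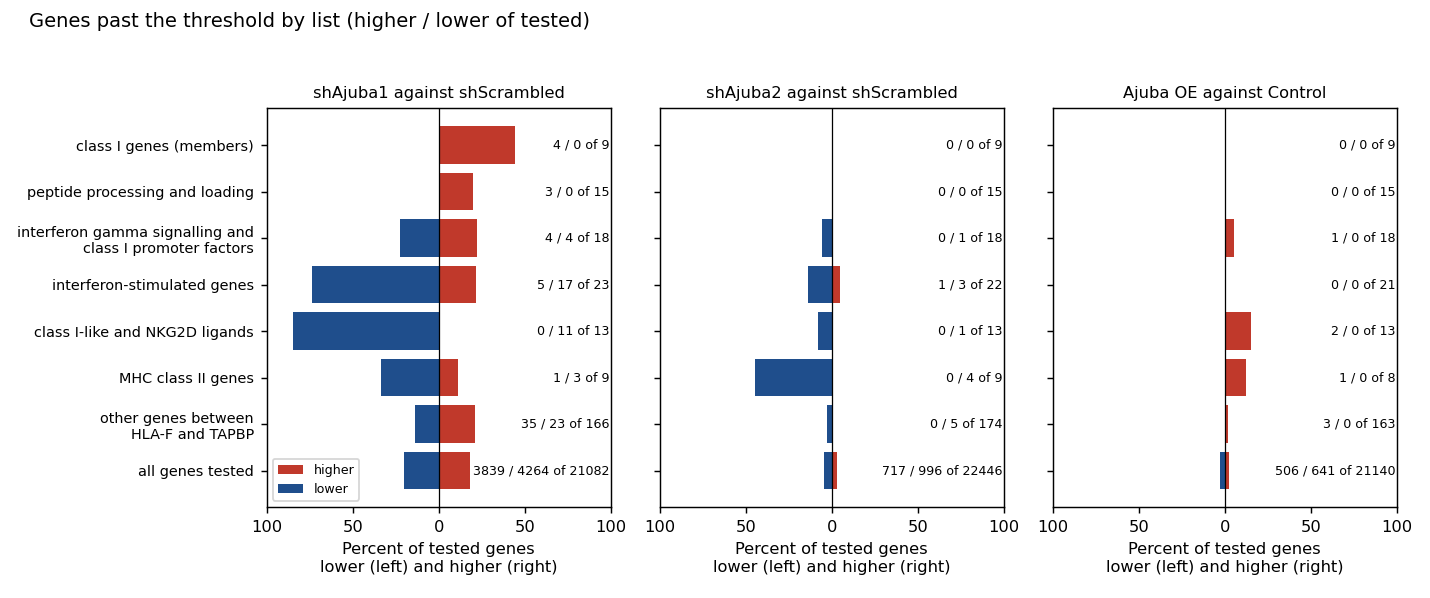
Percent of tested genes called lower (left of 0) and higher (right of 0) on the x axis for the class I members, 5 related lists, the other genes between HLA-F and TAPBP and all genes tested (y axis), in 3 comparisons. In shAjuba1 against shScrambled 4 of 9 members were higher while 17 of 23 interferon-stimulated genes and 11 of 13 class I-like genes were lower.

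Genes of the same stretch of chromosome 6 were counted to place the members among their neighbours. Between HLA-F and TAPBP the table held 292 other genes, of which 166 were tested in shAjuba1 against shScrambled, with 35 higher, 23 lower and a median log2 fold change of 0.06. Over all genes 18.2% were higher and 20.2% lower there. In shAjuba2 against shScrambled 0 of 174 were higher and 5 lower, with a median of 0.10, and in Ajuba OE against Control 3 of 163 were higher and 0 lower, with a median of 0.00114. Of 8 genes for DNA methylation and PRC2, a complex known to silence class I genes in tumors, 3 were higher in shAjuba1 than in shScrambled and 0 lower, against the same shares over all genes. UHRF1 rose by 0.44 (edgeR adjusted p = 0.002), SUZ12 by 0.23 (0.0382) and DNMT1 by 0.23 (0.0459), while 0 of 8 were called in shAjuba2 or Ajuba OE against their controls. Of 8 checkpoint ligands tested in shAjuba1, 3 were higher and 3 lower beside these shares, led by VSIR (0.79, edgeR adjusted p = 6.27e-05), PDCD1LG2 (-2.48, 4.54e-04), LGALS9 (1.48, 0.00253) and CD274, which encodes PD-L1 (-0.82, 0.00742). CD274 was higher in shAjuba2 (0.92, edgeR adjusted p = 0.0467), at 3.88 ± 0.535 RPM (SD, n = 3) beside 1.98 ± 0.352 in shScrambled (n = 2) and 1.16 ± 0.199 in shAjuba1 (n = 3). It was lower in shAjuba1 than in shAjuba2 (-1.71, edgeR adjusted p = 4.87e-04). PDCD1LG2 and LGALS9 were low too, with means of 0.111 and 1.92 RPM in shAjuba1 and 0.592 and 0.7 RPM in shScrambled.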

How the data were processed

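RNA of 16 samples from 6 lines was sequenced as stranded, paired-end mRNA libraries. The authors aligned reads to hg38 with HISAT2, counted read pairs on exons with featureCounts and deposited raw counts per gene. The strand option, annotation release and versions were not given in the sources used here. All 16 samples were used, grouped by line as the labels give them. Of 66023 identifiers, 56434 were found in GENCODE, and the other 9589 held 0.208% of counts.

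RPM was obtained by scaling each sample's counts to a sum of 1000000. Per-kilobase levels used the length of the main transcript. With R 4.3.3, each fit in edgeR 4.0.16 held the 2 lines compared (filterByExpr by line, TMM, quasi-likelihood test, two-sided), adjusted after Benjamini-Hochberg over all genes tested, with a threshold of 0.05. A further fit tested any difference among the 6 lines. The SE was derived from the log2 fold change and its F statistic. log2 CPM used a prior count of 2. Code was tested on simulated data. Alternatives were library size alone, DESeq2 size factors, DESeq2 1.42.0, every gene with at least 1 count, a replicate block, all 16 samples in 1 fit, Parental as the control and leaving out each replicate. Leaving out several replicates numbered 2 was added after seeing the data. All 9 members are named, with at most 4 called genes with values per related list and comparison, and the 5 genes most like the members. The members, lists and motifs were chosen with earlier results of these data known. Promoters came from RefSeq (GRCh38.p14), with 7 of 9 members matched. Python 3.11.15 with pandas 2.3.3 was used for levels and matplotlib 3.10.9 for plots. Depth, 30132396 to 69684675 counts per sample, limits the low counts most, and the lowest count of a member was 214, for NLRC5. CyTOF and other assays of the study were not analysed here.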

Additional observations from a re-analysis of the deposited data

Results flagged for a closer look

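The KD lines share the shScrambled control, and 2 of 9 members differed between them in a direct edgeR test. HLA-B was higher in shAjuba1 than in shAjuba2 by a log2 fold change of 0.72 (adjusted p = 0.00938), with all 3 shAjuba1 samples above all 3 shAjuba2 samples. TAPBP was higher in shAjuba1 by 0.42 (adjusted p = 0.0174), again in all 3 samples, but lost its call without any one replicate of shAjuba1 or without replicate 1 of shAjuba2 (adjusted p between 0.0523 and 0.0964). For HLA-B the gap lay between shAjuba1 and the other lines, since shAjuba2 and shScrambled overlapped. For TAPBP it lay between shAjuba2 and the 2 other shRNA lines. In the same fit 9.47% of all genes were higher in shAjuba1.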

How the results depend on the processing

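In shAjuba1 against shScrambled it was 4, and 1 with all 16 samples in 1 fit and 1 to 5 without single replicates. In shAjuba2 against shScrambled it was 0, and 2 with all 16 samples and 0 to 2 without single replicates. In Ajuba OE against Control it was 0, 2 with all 16 samples and 0 with replicates 1 and 3 alone. In shScrambled against Parental it was 2, 1 with DESeq2, 1 with all 16 samples and 1 to 2 without single replicates. In shAjuba1 against shAjuba2 it was 2, and 1 to 3 without single replicates. Over the 6 lines it was 6, 3 to 7 without single replicates and 8 without replicate 2 of shAjuba2, Control and Ajuba OE. All of these are numbers of members called. In the main fit of the 6 lines 45.7% of all genes were called, and the shares with replicates left out are not given here. The cause was not tested.

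The replicate block gave 5, 1, 8, 1, 0, 1 and 6 members called, in the order of the comparisons shAjuba1, shAjuba2 and Ajuba OE against their controls, shScrambled and Control against Parental, shAjuba1 against shAjuba2, and the 6 lines. For Ajuba OE the 8 were all members but TAP2, in a fit that also called more of all genes than the main one, as given below. Replicate numbers only name the samples. Same-numbered samples of Ajuba OE and Control had a mean correlation of 0.185 after subtracting line means, from -0.0492 to 0.505 over the 3 pairs, and 1 of 3 correlated best with its own number, a hint from the data. The correlation was -0.00971 for shAjuba1 and 0.157 for shAjuba2 with shScrambled, -0.0593 for shScrambled and -0.124 for Control with Parental, and -0.00547 between the KD lines (1 of 3 best).

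Over all genes, the calls in shAjuba2 against shScrambled were 1713, and 3210 with every gene of at least 1 count, 5377 with the block and 3672 with all 16 samples. In Ajuba OE against Control they were 1147, 5140 with the block and 2386 with all 16 samples. In shScrambled against Parental they were 6526 and 1696 with all 16 samples. In Control against Parental they were 80, 469 with DESeq2, 1947 with every gene, 318 with the block and 530 with all 16 samples. Without single replicates they ran from 182 to 4983, 412 to 988, 3010 to 5369 and 14 to 985 in these comparisons, from 4711 to 9695 in shAjuba1 against shScrambled (8103) and from 2177 to 5961 between the KD lines (4232).

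Of 639 values of single members, 563 kept direction and side of the threshold, 23 lost a call, 22 gained one and 31 changed sign, all of the last uncalled. TAP2 in shAjuba1 against shScrambled (-0.01 on the log2 scale) was 0.00478 with library size alone, 0.00108 with DESeq2, 0.0587 with the block, 0.00668 with all 16 samples and 0.22 with Parental as the control. In shAjuba2 against shScrambled, HLA-B was 0.0318 with library size alone and 0.116 with Parental, where HLA-F was 0.283 and TAP2 0.112. In Ajuba OE against Parental, HLA-C was -0.0841 and B2M -0.184. Without single replicates TAP2 ran from -0.0589 to 0.0587 in shAjuba1 against shScrambled. In shAjuba2 against shScrambled HLA-B ran from -0.103 to 0.138, HLA-C from -0.303 to 0.0974 and HLA-F from -0.231 to 0.137. B2M in Ajuba OE against Control ran from -0.0693 to 0.569. In shScrambled against Parental HLA-C ran from -0.247 to 0.0881, B2M from -0.216 to 0.131, TAP1 from -0.0753 to 0.154 and NLRC5 from -0.0482 to 0.38. In Control against Parental HLA-F ran from -0.0894 to 0.305 and NLRC5 from -0.127 to 0.277. In shAjuba1 against shAjuba2 B2M ran from -0.126 to 0.289 and NLRC5 from -0.0369 to 0.234. Where a line is left with 1 sample, that sample is assumed to vary like the other line.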
